A study of Mus musculus with 2 samples.

Results

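Histone genes were followed in mRNA sequencing of mouse liver, in 1 control library and 1 iFIRKO library. Members were the rows of both files whose symbol began with Hist1h to Hist4h, H2af, H3f or H1f, with the 4 rows marked as pseudogenes in the symbol left out, which gave 87 of 53342 rows. Of these, 69 were clustered genes (Hist symbols) and 18 were variant genes (H2af, H3f and H1f symbols). By annotation, the clustered genes hold 1 processed and 1 unprocessed pseudogene, and the variant genes hold 2 processed pseudogenes and 1 antisense transcript. A value above 0 in 1 or both libraries was found for 59 of the 69 clustered genes and for 12 of the 18 variant genes.

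iFIRKO mice carry Adipoq-CreERT2, a tamoxifen-inducible Cre recombinase driven by the adiponectin promoter, and Insr flox/flox alleles, so that the insulin receptor gene is deleted in adipocytes and not in liver cells. Control mice are WT in the sample labels and IR flox/flox in the study's methods. Male mice of both groups, 7 weeks old, received 100 mg/kg tamoxifen intraperitoneally on 5 days, and livers were taken 3 days after the last dose. The number of mice behind each library is not given in the sources used here. With 1 library per group there was no replicate check and no p-value was computed.

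Histones are the proteins around which DNA is wound. The clustered genes encode the core histones H2A, H2B, H3 and H4 and the linker histone H1 that are made during DNA replication, and their messages typically end in a short stem-loop, bound by the stem-loop binding protein SLBP, in place of a poly(A) tail. Variant genes, such as those for H3.3, H2A.Z and H1.0, lie alone in the genome, are made outside S phase as well, and give polyadenylated messages. The libraries were made with an mRNA kit, which captures RNA through its poly(A) tail, so a message that ends at the stem-loop is poorly captured. Adult liver consists mostly of hepatocytes that are not dividing.

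The estimated depth on genes was 42276968 reads for control and 41305480 reads for iFIRKO. *Insr* itself, which is not targeted in liver cells, had 4246 normalized reads in control liver and 3692 in iFIRKO liver, a log2 fold change of -0.20. The 6 hepatocyte markers summed to 5141950 normalized reads in control liver and 4833680 in iFIRKO liver, most of them from *Alb*. Among these markers *Apoa1* was called lower (168382 and 87600) and 0 higher, with a median log2 fold change of -0.23. The 4 adipocyte markers summed to 0 and 4.03 normalized reads. Genes with at least 41.8 normalized reads in either library, which corresponds to a CPM of 1, were compared, and 4.18 normalized reads were added to both values before the fold change was taken. A fold above 1.5 in either direction was called. Of all 13400 genes compared, 4.46% were called higher in iFIRKO and 7.28% were called lower, with a median log2 fold change of 0.01. Intervals are exact Clopper-Pearson intervals at 95% on estimated read pairs. Such intervals hold counting error alone, and they set a library against a library rather than a genotype against a genotype.

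The stem-loop was searched on the sense strand of the GENCODE M21 transcripts, which use the build of the study's processing notes (mm10, GRCm38). It was found in 47 of the 87 members and in 59 of all 55341 genes, which is 0.107%. Among the members, 9 different stem-loops occurred, and the commonest was held by 26 genes. Those of the members on which the results below turn are shown, with the stem of 6 bases on each side and the loop of 4 bases in capitals and 5 flanking bases in lower case. *Hist1h3c* is added as a gene listed at 0 in the control library.

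Hist1h1c, chr13:23739507-23739532, forward strand: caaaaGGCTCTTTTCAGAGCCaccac
Hist1h1d, chr13:23555782-23555807, forward strand: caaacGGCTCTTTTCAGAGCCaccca
Hist1h4i, chr13:22040961-22040986, reverse strand: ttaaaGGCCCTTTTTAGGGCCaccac
Hist1h3c, chr13:23745042-23745067, reverse strand: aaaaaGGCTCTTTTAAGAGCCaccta
Hist2h2aa1, chr3:96246027-96246052, forward strand: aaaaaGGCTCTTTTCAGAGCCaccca
Hist2h2aa2, chr3:96239779-96239804, reverse strand: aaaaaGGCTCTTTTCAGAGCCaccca
Hist2h3c1, chr3:96247322-96247347, forward strand: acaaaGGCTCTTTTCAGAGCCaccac
Hist2h3c2, chr3:96238480-96238505, reverse strand: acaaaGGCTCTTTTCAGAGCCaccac
Hist3h2a, chr11:58955167-58955192, forward strand: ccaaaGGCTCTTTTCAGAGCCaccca
H2afx, chr9:44335235-44335260, forward strand: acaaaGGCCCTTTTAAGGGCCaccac

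The printed stretch is the same in *Hist2h2aa1* and *Hist2h2aa2*, and the same in *Hist2h3c1* and *Hist2h3c2*. *H2afx* was the single variant gene in which the stem-loop was found, and its transcript runs on for another 822 bases with a poly(A) signal (AATAAA or ATTAAA) in them. H2AX is known to be made from both kinds of message.

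The variant genes as a group were close to level between the libraries. Of the 10 that reached the minimum, 1 was called higher and 0 lower, set against 4.46% and 7.28% of all genes, and their median log2 fold change was 0.10. Their summed values were 24097 normalized reads in control liver and 25182 in iFIRKO liver (log2 ratio 0.06, interval 0.03 to 0.10). They made up 0.0574% of all reads in control liver and 0.0606% in iFIRKO liver.

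H3.3, the replacement form of histone H3 that is deposited at transcribed genes, is encoded by *H3f3a* and *H3f3b*, which give the same protein from separate messages. *H3f3b* (chromosome 11, 116021912 to 116027962) had 8861 normalized reads in control liver and 9460 in iFIRKO liver, the highest value of any member in both (log2 fold change 0.09, interval 0.04 to 0.15). *H3f3a* (chromosome 1, 180800832 to 180813943) had 3292 and 3507 (log2 fold change 0.09, interval -0.01 to 0.19). The division between these messages differed by less than the counting error, since *H3f3b* gave 72.9% of their read pairs in the control library (interval 71.8% to 74.0%) and 73.0% in the iFIRKO library (interval 71.9% to 74.0%). *H3f3c*, annotated as a processed pseudogene, was listed at 298.5 and 322.6 normalized reads. Of its 50-base words, 73.8% also occur in another gene, most often in *H3f3a*, so its value is uncertain. *H3f3aos*, the antisense transcript of *H3f3a*, matched the symbol rule without encoding a histone and had 13.9 and 6.04 normalized reads.

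H2A.Z, a form of H2A found at promoters, differed most among the abundant variants. *H2afz* (chromosome 3, 137864487 to 137866922) had 1920 normalized reads in control liver and 2765 in iFIRKO liver, a fold of 1.44 that stayed under the limit of 1.5 (log2 fold change 0.53, interval 0.41 to 0.65). *H2afv* (chromosome 11, 6427229 to 6444443), which encodes the other H2A.Z protein, had 733.5 and 606.4 (log2 fold change -0.27, interval -0.50 to -0.05). The genes thus lay on opposite sides of 0. Of the words of *H2afz*, 16.9% occur in another gene, most often *Gm8203*. The share of *H2afz* in the read pairs of both genes was 72.4% in the control library (interval 69.9% to 74.7%) and 82.0% in the iFIRKO library (interval 80.1% to 83.8%), and the intervals did not overlap.

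*H2afx*, whose protein is phosphorylated around DNA breaks, had 483.9 normalized reads in control liver and 565.1 in iFIRKO liver (log2 fold change 0.22, interval -0.02 to 0.48). *H2afj*, an H2A variant gene on chromosome 6, was level at 819.7 and 816.4 (log2 fold change -0.01, interval -0.21 to 0.19). MacroH2A, which carries a large additional domain and is linked to silent chromatin, is encoded by *H2afy* and *H2afy2*. *H2afy* had 2987 and 3197 normalized reads (log2 fold change 0.10, interval -0.0044 to 0.20), and gave 99.1% and 98.5% of the macroH2A read pairs. *H2afy2* (chromosome 10, 61738665 to 61784147) was the single variant gene called higher, with 27.8 and 51.4 normalized reads and a log2 fold change of 0.80. Its interval ran from -0.08 to 1.96, so a difference was not established at about 14 and 26 read pairs, and the call was lost with a pseudocount of 41.8 normalized reads or with the minimum required in both libraries.

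Linker histones bind the DNA between nucleosomes, and H1.0, the product of *H1f0*, is the form that accumulates in cells that have stopped dividing. *H1f0* (chromosome 15, 79028450 to 79030504) had 4656 normalized reads in control liver and 3861 in iFIRKO liver (log2 fold change -0.27, interval -0.36 to -0.18). It was thus lower by a fold of 1.21 and not called. Among the read pairs of all linker histone genes, variant and clustered, *H1f0* alone gave 68.2% in the control library (interval 66.6% to 69.7%). In the iFIRKO library it gave 66.1% (interval 64.4% to 67.8%). *H1fx* had 3.97 and 24.2 normalized reads, or 2 and 12 read pairs, a plain ratio of 6.08 with a counting interval from 1.35 to 55.9, and it stayed under the minimum for a comparison. *H1foo*, *H1fnt*, *H2afb1*, *H2afb2*, *H2afb3* and *H2afy3* were listed at 0 in both libraries. The first pair encodes linker histones of the germ line.

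**Figure D1:**
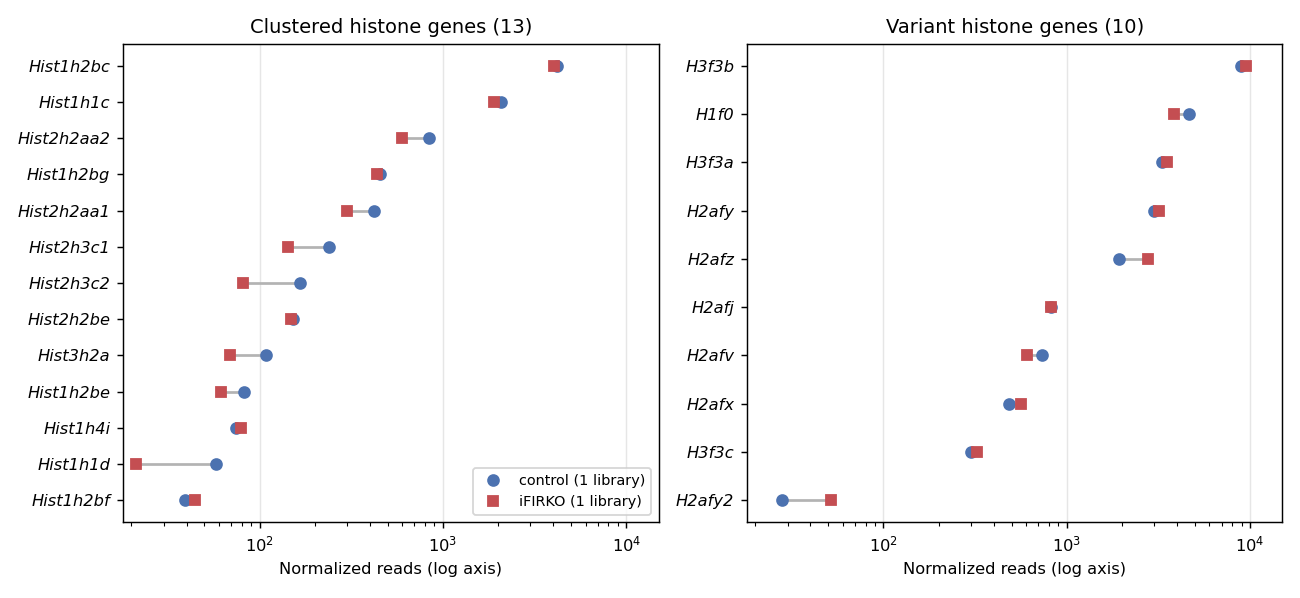
Normalized reads (log axis) of the 13 clustered and 10 variant histone genes that reached 41.8 normalized reads in either library. Each circle is the control library and each square the iFIRKO library; the clustered genes *Hist1h1d*, *Hist2h3c2*, *Hist2h3c1* and *Hist3h2a* show the widest gaps to the lower side and *H2afy2* to the higher side.

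The clustered genes abundant enough to compare lay on the lower side. Of the 13 that reached the minimum, 0 were called higher and 4 lower, beside 4.46% higher and 7.28% lower among all genes. A log2 fold change below 0 was found in 11 of the 13. Among those, *Hist2h2aa1*, *Hist2h2aa2*, *Hist2h3c1* and *Hist2h3c2* share over 50% of their words with another gene, so they do not count separately. With the minimum required in both libraries, 3 of 11 were lower, beside 5.57% of all genes, since *Hist1h1d* had passed through the control library alone. With no minimum, 14 of the 59 genes above 0 were higher and 8 lower, beside 9.0% and 12.0% of all genes. With no replicates, no test was made of these counts. Their median log2 fold change was -0.40, against 0.01 over all genes. This median changed sign to 0.13 with no minimum, and was -0.09 over the 8 compared genes that share at most 50% of their words with another gene. The summed values of all 69 genes differed less, at 9303 and 8400 normalized reads (log2 ratio -0.15, interval -0.21 to -0.09), and 2 genes carried most of the reads. The 69 clustered genes made up 0.0221% of all reads in control liver and 0.0202% in iFIRKO liver.

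Those genes were *Hist1h2bc* and *Hist1h1c*. *Hist1h2bc* (chromosome 13, 23684199 to 23692908), which encodes an H2B, had 4207 normalized reads in control liver and 4039 in iFIRKO liver (log2 fold change -0.06, interval -0.15 to 0.03). *Hist1h1c* (chromosome 13, 23738808 to 23740367), which encodes the linker histone H1.2, had 2069 and 1901 (log2 fold change -0.12, interval -0.25 to 0.01). Both were thus near level. Together they gave 67.4% of the clustered read pairs in the control library (interval 66.1% to 68.8%) and 70.7% in the iFIRKO library (interval 69.3% to 72.1%). Without them the clustered sum was 3028 and 2461 normalized reads (log2 ratio -0.30, interval -0.41 to -0.19).

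Per kilobase of the longest coding transcript model, *Hist1h2bc* had 3639 normalized reads in the control library, beside 3525 for *H3f3b*, 2266 for *H1f0*, 1796 for *H2afz*, 1593 for *Hist2h2aa2*, 1460 for *H2afy*, 1326 for *Hist1h1c* and 1159 for *H3f3a*. In the iFIRKO library the levels per kilobase were 3494 for *Hist1h2bc*, 3763 for *H3f3b*, 1879 for *H1f0*, 2587 for *H2afz*, 1135 for *Hist2h2aa2*, 1562 for *H2afy*, 1218 for *Hist1h1c* and 1234 for *H3f3a*. The first and second places, those of *H1f0* and *H2afz*, and those of *Hist1h1c* and *H3f3a* were thus exchanged between the libraries. *Hist2h2aa2* lay above *H2afy* in the control library and was the lowest of those listed in the iFIRKO library. The fold changes of *Hist1h2bc*, *Hist1h1c* and *H3f3a* had intervals that include 0, so the exchanges of these genes were not established. Such levels depend on the model that is used for each gene.

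The Hist2 cluster on chromosome 3 (96219865 to 96270132) held a block of lower values. Its 10 genes summed to 1856 normalized reads in control liver and 1298 in iFIRKO liver (log2 ratio -0.52, interval -0.66 to -0.37). At its centre, *Hist2h3c2* and *Hist2h2aa2* on the reverse strand face *Hist2h2aa1* and *Hist2h3c1* on the forward strand, with 5221 bases between the starts of the H2A genes. The H3 genes were called lower. *Hist2h3c2* had 167.1 and 81.4 normalized reads (log2 fold change -1.002, interval -1.63 to -0.49), and *Hist2h3c1* had 240.0 and 143.1 (log2 fold change -0.73, interval -1.19 to -0.32).

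The H2A genes of the same block had values of like direction without passing the fold. *Hist2h2aa2* had 840.9 and 599.2 normalized reads (log2 fold change -0.49, interval -0.71 to -0.27), and *Hist2h2aa1* had 419.1 and 300.6 (log2 fold change -0.47, interval -0.80 to -0.17). Separate values of these genes are uncertain, since 100% of the 50-base words of *Hist2h2aa2*, 89.4% of those of *Hist2h2aa1*, 100% of those of *Hist2h3c1* and 63.5% of those of *Hist2h3c2* occur in another gene. *Gm20634*, a non-coding transcript annotated from 96245554 to 96248509 on the forward strand, overlaps *Hist2h2aa1* and *Hist2h3c1* and had 820.6 and 535.8 normalized reads, a log2 fold change of -0.61. The ratio of *Hist2h2aa2* to *Hist2h2aa1* was 2.01 in control liver and 1.99 in iFIRKO liver. With *Gm20634* added, the block summed to 2488 and 1660 normalized reads (log2 ratio -0.58, interval -0.71 to -0.45). Words of this block also occur in histone genes outside it, and the part of read division in its values was not tested.

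The rest of the Hist2 cluster behaved otherwise or was low. *Hist2h2be*, an H2B gene with no 50-base word in another gene, had 152.0 and 149.0 normalized reads (log2 fold change -0.03, interval -0.50 to 0.46). *Hist2h3b* had 18.5 and 10.4 normalized reads and *Hist2h4* had 11.7 and 14.1. *Hist2h2ac* had 6.29 normalized reads in control liver and was listed at 0 in the iFIRKO library, and *Hist2h2ab* and *Hist2h2bb* were listed at 0 in both.

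Outside that cluster 2 genes were called lower, and each call was lost under an alternative. *Hist1h1d* (chromosome 13, 23553262 to 23560686), which encodes the linker histone H1.3, had 57.6 normalized reads in control liver and 21.1 in iFIRKO liver (log2 fold change -1.29, interval -2.72 to -0.44). *Hist3h2a* (chromosome 11, 58954685 to 58956830) had 108.8 and 69.2 (log2 fold change -0.62, interval -1.34 to -0.03). The gene *Trim17* overlaps *Hist3h2a* on the same strand, and 31.5% of the words of *Hist3h2a* occur in another gene, most often in *Trim17*. *Trim17* had 56.1 and 35.1 normalized reads (log2 fold change -0.62). With a pseudocount of 41.8 normalized reads, *Hist3h2a* was no longer called (log2 fold change -0.44) and *Hist1h1d* was at -0.66, and *Hist1h1d* was not compared where both libraries had to reach the minimum.

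The other Hist1 genes above the minimum were not called. *Hist1h2bg* had 452.7 and 438.4 normalized reads (log2 fold change -0.05, interval -0.32 to 0.23). *Hist1h2be* had 82.7 and 61.9, with -0.40 (interval -1.14 to 0.28), and shared 16.3% of its words, most often with *Hist1h1e*. *Hist1h4i*, the only H4 gene that reached the minimum, had 74.5 and 79.2, with 0.08 (interval -0.59 to 0.78), and *Hist1h2bf* had 39.1 and 44.5, with 0.17 (interval -0.79 to 1.11). At this depth no difference was detectable for these 4 genes.

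**Figure D2:**
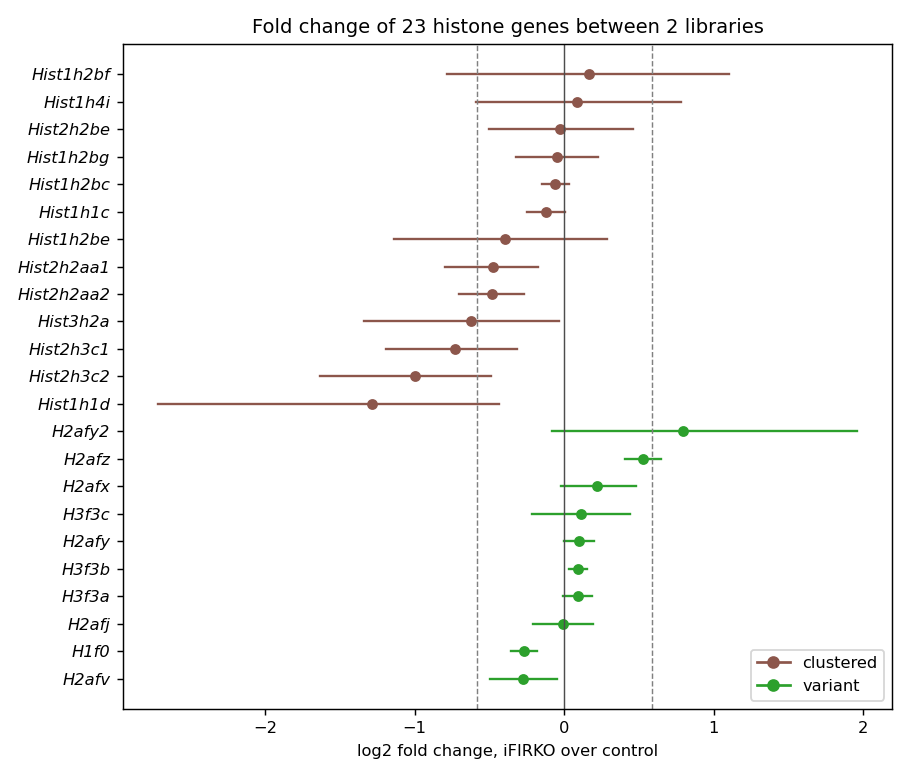
Log2 fold change, iFIRKO over control, of the 23 histone genes above the minimum, with 95% counting intervals as lines and the fold limit of 1.5 as dashed lines. Clustered genes reach from -1.29 to 0.17 and variant genes from -0.27 to 0.80.

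Most clustered genes were near or at the limit of detection. Of the 69, 56 stayed under the minimum, and their summed values were 393.1 normalized reads in control liver and 473.6 in iFIRKO liver (log2 ratio 0.27, interval -0.01 to 0.55). The iFIRKO value was the higher in 33 of these genes and the lower in 13, and 10 were listed at 0 in both libraries. The same counts were not taken over all genes under the minimum, so a lean particular to histone genes was not established. Of the 59 clustered genes above 0 in either library, 11 had a value in the iFIRKO library alone and 3 in the control library alone, where the shares over all genes above 0 in either were 7.30% and 7.25%. A gene whose scaled count was not above 1 is listed at 0. A single read was worth 0.994 normalized reads in control liver and 1.007 in iFIRKO liver, so that 1 read was listed in the latter and hidden as 0 in the former. In iFIRKO liver, however, 0 members were listed at the value of a single read. *Hist1h2ai* and *Hist1h2ah*, listed at 0 in control liver, had 1.22 and 1.20 normalized reads in iFIRKO liver, which is above that value. Control values above 0 that were listed as 0 cannot be seen, and their part in the counts was not tested.

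The H3 genes of the Hist1 cluster, which encode replication-dependent H3, had the largest ratio among the groups of low genes. The 9 genes summed to 14.6 normalized reads in control liver and 44.6 in iFIRKO liver, or 7.36 and 22.2 read pairs (log2 ratio 1.61, interval 0.39 to 3.14). The iFIRKO value was the higher in 7 of the 9 genes, again without a like count over all low genes. *Hist1h3c*, *Hist1h3e*, *Hist1h3g*, *Hist1h3h* and *Hist1h3i* were listed at 0 in the control library and at 8.63, 2.01, 5.03, 3.09 and 5.40 normalized reads in the iFIRKO library. The ratio and interval above take these control values as 0. With those 5 genes set to 1 normalized read each, the control sum was 19.6, beside 44.6 in the iFIRKO library. The ratio would be smaller, and no interval was computed for it. With *Hist2h3b* (18.5 and 10.4 normalized reads) included, the 10 clustered H3 genes under the minimum summed to 33.2 and 55.0. Their log2 ratio, again with values listed at 0 taken as 0, fell to 0.73 (interval -0.24 to 1.65). A difference over all low H3 genes was therefore not established. Of the words of *Hist1h3h* and *Hist1h3i*, 93.9% and 87.6% occur in another gene. *Hist1h3d* had 2.48 and 10.1 normalized reads and *Hist1h3a* 2.98 and 6.62, while *Hist1h3b*, at 6.46 and 2.11, and *Hist1h3f*, at 2.71 and 1.58, were higher in the control library. The H3 genes of the Hist2 cluster, in contrast, summed to 425.7 and 234.9 (log2 ratio -0.86, interval -1.19 to -0.52).

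The 11 H4 genes of the Hist1 cluster summed to 160.3 normalized reads in control liver and 200.02 in iFIRKO liver, a log2 ratio of 0.32 whose interval from -0.13 to 0.75 includes 0. The iFIRKO value was the higher in 8 of them and the lower in 2, also without a like count over all low genes. *Hist1h4k* had 8.14 and 20.4 normalized reads, *Hist1h4c* 6.25 and 16.1, and *Hist1h4h* 35.1 and 23.2. The 15 genes with a Hist1 H2A symbol summed to 41.9 and 62.4 (log2 ratio 0.58, interval -0.26 to 1.45), and none of them reached the minimum. Of these sums, 24.5 and 27.4 came from *Hist1h2al*, annotated as a processed pseudogene. It lies at 51202727 to 51203065 on chromosome 13, away from the other Hist1 genes. *Hist1h2aj*, annotated as an unprocessed pseudogene, was listed at 0 in both libraries. The 15 H2B genes, carried by *Hist1h2bc*, summed to 4949 and 4772 (log2 ratio -0.05, interval -0.13 to 0.03). The groupings by cluster and type follow the symbols and were made after the values had been seen.

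**Figure D3:**
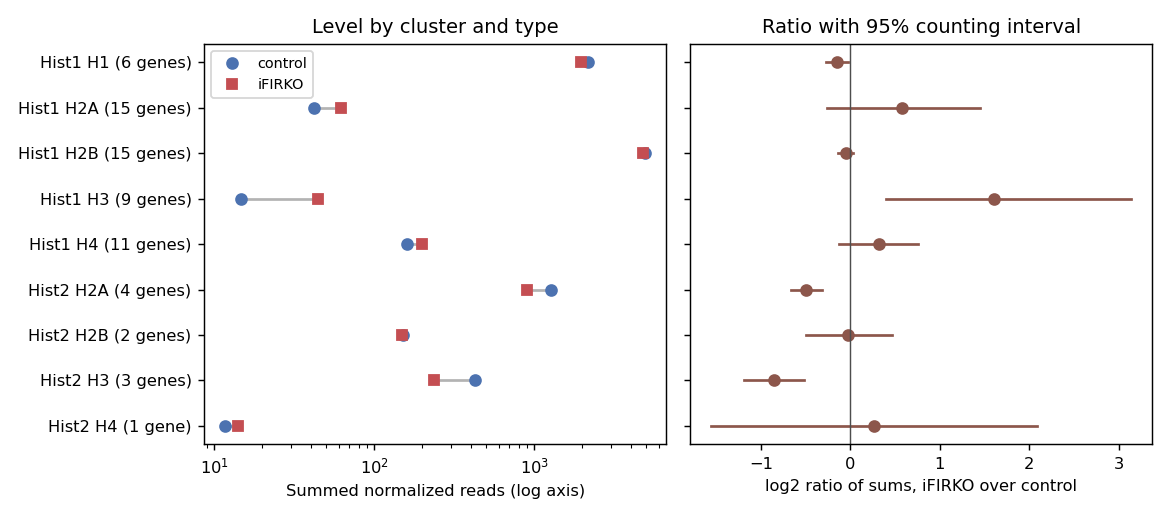
Normalized reads (log axis, left) summed over the genes of each histone type in the Hist1 and Hist2 clusters, with circles for the control and squares for the iFIRKO library, and the log2 ratio of these sums with its 95% counting interval (right). Hist2 H2A and H3 lie below 0, at -0.49 and -0.86, and Hist1 H3 lies above 0, at 1.61 from few reads, with values listed at 0 taken as 0.

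Reads shared between near-identical genes limit all separate values of the clustered genes. Of the 69, 34 shared more than 50% of their 50-base words with another gene, among them 5 of the 13 above the minimum. Of the clustered values above 0 and under 50 read pairs, 6 of 39 in the control library and 9 of 49 in the iFIRKO library were whole read pairs within 0.02, which is 15.4% and 18.4%. Over all genes it was 42.4% and 42.9%. Their intervals, taken on rounded pairs, are therefore approximate.

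Clustered genes with longer annotated transcripts reached the minimum more often in these libraries. The minimum is set in reads and not per kilobase, so a longer message can reach it at the same level. The split at 700 bases was not among the planned comparisons. Of the 26 with a model of 700 bases or more, 9 reached the minimum and 0 were listed at 0 in both libraries, and the median value was 21.8 normalized reads in control liver and 18.6 in iFIRKO liver. Of the 43 with a shorter model, 4 reached the minimum and 10 were listed at 0 in both, and the medians were 1.57 and 3.92. For 15 clustered genes the annotation holds no 3′UTR, so the search for a stem-loop or a later poly(A) signal was void there, and 0 of these reached the minimum.

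A poly(A) signal after the stem-loop was found in 17 clustered genes, with medians of 11.7 and 14.1 normalized reads, and 6 of them reached the minimum: *Hist1h1c*, *Hist2h3c1*, *Hist3h2a*, *Hist1h1d*, *Hist1h2be* and *Hist1h4i*. In 29 genes the stem-loop was found without a later signal, with medians of 2.98 and 6.62, and 5 of them reached the minimum. The highest of these in control liver were *Hist2h2aa2* at 840.9 normalized reads, *Hist1h2bg* at 452.7 and *Hist2h2aa1* at 419.1. The models of both Hist2 genes end 35 bases after the stem-loop printed above, and that of *Hist1h2bg* ends 155 bases after its own. *Hist1h2bc* and *Hist2h2be* belonged to the 8 genes with an annotated 3′UTR in which no stem-loop was found. In this group, the annotated 3′UTR of *Hist1h2af*, *Hist1h2ah*, *Hist2h3b* and *Hist1h1a* holds only 1, 2, 37 and 48 bases. Absence of a stem-loop was therefore not established for those genes. For the other genes of the group it holds only for the annotated transcripts and the pattern searched. Length, reads from near-identical copies and the annotation itself differ between these groups, and their part in the levels was not tested.

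**Figure D4:**
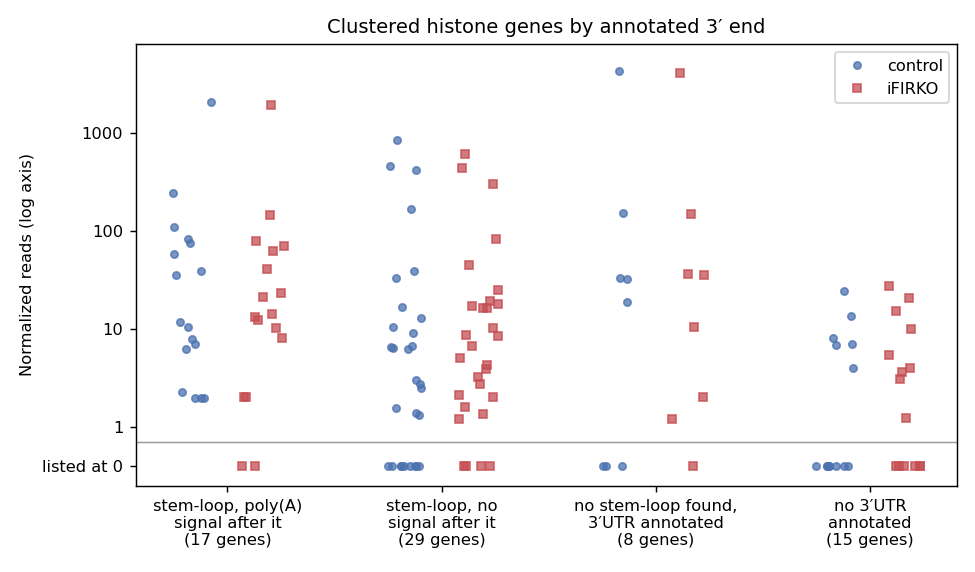
Normalized reads (log axis) of the 69 clustered genes in the control (circles) and iFIRKO (squares) libraries, by what the annotation holds at the 3′ end, with genes listed at 0 drawn below the line and points spread sideways for visibility. *Hist1h1c* tops the first group at 2069 control reads, *Hist2h2aa2* the second at 840.9 and *Hist1h2bc* the third at 4207.

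Genes that process histone messages were close to level. Of 14 genes on this list 13 were in the files and 11 reached the minimum, with 0 called in either direction and a median log2 fold change of -0.03. Over all genes compared, 4.46% were called higher and 7.28% lower, so few calls would be looked for in a list of this size. *Slbp*, which encodes the stem-loop binding protein, had 823.4 normalized reads in control liver and 619.0 in iFIRKO liver (log2 fold change -0.41, interval -0.63 to -0.20), the lowest of the list. *Npat*, a coactivator of clustered histone genes, was level at 258.2 and 258.3. All 25 genes for histone chaperones and deposition reached the minimum, 0 were called, and their median was -0.03. Among them *Asf1b*, which hands new H3 and H4 to the replication fork, had 118.9 and 121.8 normalized reads, and *Npm1* had 4301 and 3440 (log2 fold change -0.32, interval -0.41 to -0.23), the lowest of that list.

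For the cell cycle, the 20 S phase genes had 2 called higher, *Rrm2* (755.2 and 1264 normalized reads) and *Gins2* (65.6 and 106.7), and 2 called lower, *Pola1* (263.6 and 134.8) and *Uhrf1* (283.3 and 139.2), with a median log2 fold change of -0.01. The shares over all genes compared were 4.46% higher and 7.28% lower. Of the 15 mitotic genes 13 were called higher and 0 lower, among them *Ccnb1* (129.2 and 555.3 normalized reads), *Cdc20* (231.2 and 916.0) and *Cenpa*, the centromeric H3 variant whose symbol lies outside the rule, at 377.5 and 576.6 normalized reads.

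Markers of other cells also differed between these livers, where 4.46% of all genes compared were called higher and 7.28% lower. Of 12 erythroid markers, 9 were compared and 7 called higher and 2 lower, their summed level was 13670 and 27161 normalized reads, and *Gata1* was at 0 in both libraries. Macrophage and Kupffer cell markers had 4 of 7 called lower (29302 and 19039 in sum), B cell markers 3 of 4 (669.7 and 296.2) and neutrophil markers 2 of 2 (383.8 and 110.4). Endothelial markers had 2 of 5 called lower (8652 and 6293), while 0 of 5 stellate and 0 of 4 cholangiocyte markers were called. The T and NK cell markers, none of which reached the minimum, summed to 122.2 and 65.4. Fewer cells of a type and less RNA per cell cannot be told apart in whole liver. The part of these cells in the histone values was not tested.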

How the data were processed

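For each of the 2 liver libraries the authors deposited a table of log2 values, 1 per gene symbol, of read counts they had scaled; a scaled count no higher than 1 appears as 0. Libraries were made with a stranded mRNA kit and sequenced on the Illumina NovaSeq platform, and the processing notes name the mm10 build. Aligner, counter, annotation, the use of strand and the handling of multi-mapping reads are not given in the sources used here, so antisense and overlapping genes are uncertain.

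Values were converted back from log2 to linear. The commonest low value was taken as 1 read pair, which gave 0.994 normalized reads per read in the control and 1.007 in the iFIRKO library, and pairs were rounded for intervals. Depths are therefore estimates. No fold was given at 3 read pairs or fewer, except a plain ratio for *H1fx*, chosen after its value was seen. Transcripts and positions were those of GENCODE M21 on GRCm38, in which all 87 members were found by symbol. A 50-base word counted as shared where it occurred, on the same strand, in a transcript of another gene.

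Variant genes above 0 and clustered genes at 41.8 normalized reads or more were named with their values, low genes of the Hist1 and Hist2 clusters and overlapping genes after their values were seen. From the companion lists, genes past the fold or among the most abundant were named, and *Slbp*, *Npat*, *Asf1b* and *Cenpa* for their role, after their values were seen. The members and lists were chosen with earlier results of these data known. Alternatives were other pseudocounts, minimums, scalings and folds, summed duplicate symbols, and leaving out members with shared words. The procedures were tested on simulated data. Intervals were computed with scipy 1.17.1, tables with pandas 2.3.3 and numpy 2.4.6, and plots with matplotlib 3.10.9, under Python 3.11.15.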

Additional observations from a re-analysis of the deposited data

How the results depend on the processing

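The log2 ratio of summed clustered reads, -0.15, and of summed variant reads, 0.06, kept their direction under every alternative run for them, as did the variant median. For the sums this says little, since the scalings shifted them too slightly and summing duplicate symbols changed nothing. Only leaving out members with shared words could have turned a sum, and it gave -0.09 for clustered and 0.06 for variant genes. The clustered median, -0.40, turned to 0.13 with no minimum, which lets in genes of few reads, and was -0.09 without members that share over 50% of their words. It stayed below 0 under the other alternatives. Counts of calls moved. Without a minimum, 14 clustered genes were higher and 8 lower, and 2 variant genes were higher and 1 lower, with 1960 and 2620 of 21768 among all genes. A minimum of 209.0 normalized reads left 1 clustered gene lower and 0 variant genes higher (288 and 440 among all genes), where fewer genes are compared. A fold above 2 left 2 clustered genes lower and 0 variant genes higher (209 and 267). With a pseudocount of 41.8 normalized reads, 0 variant genes were higher and 3 clustered genes lower (371 and 576 among all genes), and with the minimum in both libraries these counts were also 0 and 3 (437 and 711). Without members that share over 50% of their words, 2 clustered genes were lower, *Hist1h1d* and *Hist3h2a*. In the main setting these counts were 0 and 4 clustered, 1 and 0 variant, and 597 and 976 of all genes. The scalings moved all log2 fold changes by at most 0.0121. The 23 histone genes followed singly kept their direction, within their intervals, in all 138 values. This says little, since a pseudocount added to both values, or none, cannot turn a direction. Summing duplicate symbols left these genes unchanged, so only the small shifts of the scalings could have turned one. No paired analysis was possible because there was a single library of either genotype, and none could be left out for the same reason. Counting error limits the single values of the clustered genes under the minimum.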
